A study of Mus musculus with 12 samples.

Results

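Subcutaneous white adipose tissue (scWAT) of mice lacking LR11 was set against brown adipose tissue (BAT) of their wild-type (WT) littermates, to measure gene by gene how far the knockout white depot reached or passed true brown fat. Of the 12 one-colour Agilent arrays of the series, 6 entered this comparison, the 3 with the source name Lr11 -/- scWAT and the 3 with the source name WT BAT. All 12 arrays came from animals labelled as male C57Bl6/J mice of 12 weeks on a high-fat diet (HFD) with 60% of calories from fat. The labels name 4 weeks of diet and also a diet begun at weaning, so its length is not settled. The knockout was constitutive and not restricted to fat cells, so tissue and genotype differ together between the groups and their shares of a difference cannot be told apart. The study's methods give the number of RNA sources per group but not whether each was 1 animal or a pool, so p-values measure the spread between these arrays.

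Brown adipocytes burn fuel to make heat. Their many mitochondria carry UCP1, which lets protons return across the inner membrane without making ATP, and noradrenaline acting through the β3-adrenergic receptor and cAMP switches this on. White adipocytes mainly store triglyceride, but subcutaneous white depots can form UCP1-positive beige adipocytes, a change called browning. LR11, encoded by Sorl1, is a sorting receptor of the VPS10p family that also carries LDL receptor repeats, and part of it is shed from the cell as a soluble protein. Classical brown and beige adipocytes arise from different precursors, and the Hox genes, which record position along the body axis, keep a depot-specific pattern in the adult.

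Levels are log2 intensities relative to the 75th percentile of each array, so a level of 0 is a probe as bright as that percentile. Per-array levels are given in the order of replicates 1, 2 and 3, which are names only. A difference is the mean of Lr11 -/- scWAT minus the mean of WT BAT on the same log2 scale, and each was tested with limma. A probe was tested if Feature Extraction marked it as well above background on 3 of 3 arrays in either group, which left 30208. Of the tested probes 18363 had a gene symbol, for 14114 genes. A gene was called at a Benjamini-Hochberg adjusted p under 0.05. The arrays measured bulk tissue, so fewer cells of a type and less RNA per cell cannot be told apart in any value below.

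The 3 Lr11 -/- scWAT arrays did not resemble each other, and every result below is therefore given with its arrays and, where it matters, without replicate 1. The Y-linked genes Ddx3y and Eif2s3y stood at -6.60 and -5.57 on replicate 1. On the other 11 arrays of the series they lay between 1.55 and 2.35 and between 2.56 and 3.78. Replicate 1 had 0 of 4 Y-linked genes above background, against 3 or 4 of 4 on each other array, which goes against its label of a male animal. The Xist probes were at background on all 12 arrays, replicate 1 included (-6.79 and -6.64), so the sex of that animal is not settled by these genes.

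The same array was rich in markers of other cell types. All 8 epithelial markers were above background on replicate 1, with the keratins Krt8, Krt18 and Krt19 at 2.19, 5.07 and 4.12, against 3 to 6 of 8 on the other 11 arrays. Their summed level was 6.12 on replicate 1 and 3.2 to 4.4 elsewhere. All 20 skeletal muscle markers were above background on Lr11 -/- scWAT replicate 1 (summed level 12.6) and on WT BAT replicates 1 and 3 (11.1 and 10.8). On the remaining 3 arrays of the comparison 9 or 10 of the 20 were above background, with summed levels of 4.96 to 5.26.

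Lr11 -/- scWAT replicates 2 and 3 carried transcripts of the epididymis, the duct beside the testis. Of 25 epididymal genes, a list drawn up after the values were seen, 20 and 21 were above background on these arrays and 2 to 4 on each of the other 10. Their summed level was 2.93 and 3.85 on replicates 2 and 3, and 0.58 to 1.91 on the other 10 arrays. Gpx5, a secreted peroxidase of the epididymis, stood at -6.28, 0.18 and 0.92 on the Lr11 -/- scWAT arrays and at -6.91, -4.45 and -5.17 on the WT BAT arrays. The adipocyte markers were above background on every array, 6 of 6, with a median level of 7.82 to 7.99 in Lr11 -/- scWAT and 7.33 to 7.56 in WT BAT. In WT scWAT, given below for reference, the medians were 8.47, 4.04 and 6.66. The summed adipocyte levels were 10.5, 11.0 and 11.1 in Lr11 -/- scWAT and 10.5, 10.8 and 10.8 in WT BAT. On Lr11 -/- scWAT replicate 1 Plin1 and Pparg stood at 5.22 and 5.09. On replicates 2 and 3 Plin1 stood at 6.58 and 6.86 and Pparg at 6.64 and 6.61. Of the adipocyte markers only Adipoq was highest on replicate 1, at 8.03. WT scWAT replicate 2 stood apart, with Adipoq at 3.84 and a macrophage marker median of 6.09 against 2.13 and 1.62 on WT scWAT replicates 1 and 3, so means of that group rest on unlike arrays. The part of the epithelial, muscle, epididymal and macrophage RNA in the results below was not tested.

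**Figure D1:**
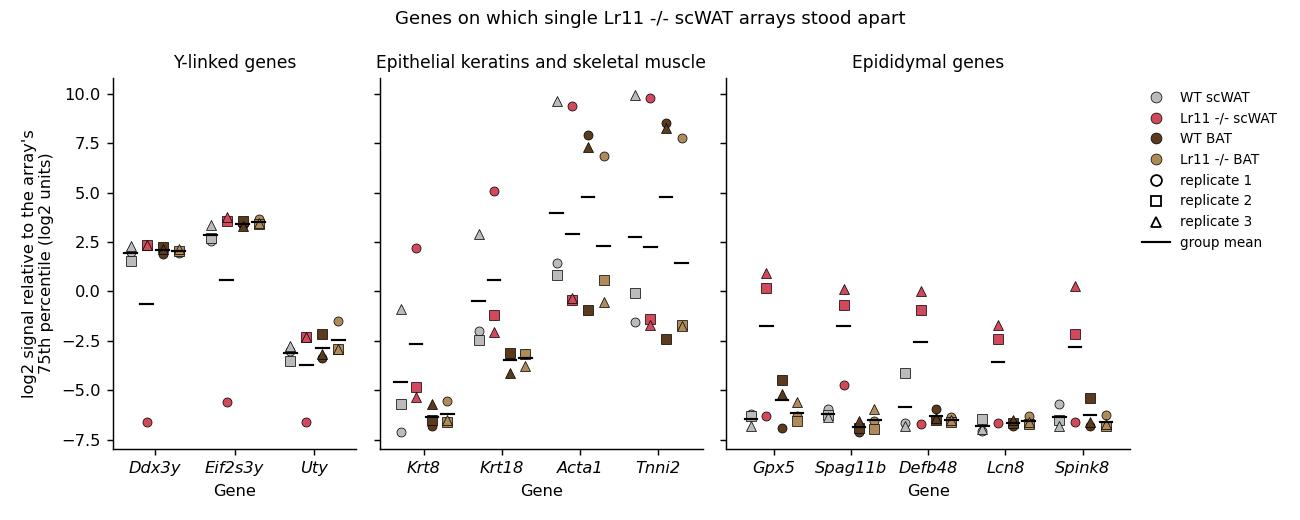
Levels of Y-linked, epithelial, skeletal muscle and epididymal genes on the 12 arrays (vertical axis, log2 intensity relative to the 75th percentile of the array), with each array a point, coloured by group and shaped by replicate, and the group mean a line. Lr11 -/- scWAT replicate 1 lacks the Y-linked signal of the other 11 arrays and is the highest in the keratins, and replicates 2 and 3 are high in epididymal genes.

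Few probes separated the groups past the spread. Of 30208 tested probes 28 were called (0.0927%), 9 higher in Lr11 -/- scWAT (0.0298%) and 19 lower (0.0629%), and 2465 (8.16%) had an unadjusted p under 0.05. The median difference over all tested probes was -0.05. The 95% confidence interval of the difference lay wholly within 2-fold for 14615 probes (48.4%), and these are the probes for which the arrays bound the gap between the tissues. Without Lr11 -/- scWAT replicate 1, 161 of 31084 probes were called (0.518%), 87 higher and 74 lower, and the 28 were all among them.

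Replicate 1 of each group belonged to the first array series and replicates 2 and 3 to the second. In the first series scWAT and BAT lay on different slides, and in the second all arrays shared 1 slide, so for Lr11 -/- scWAT the array series and the features of replicate 1 cannot be told apart. Within the second series the thermogenic genes described below had a median difference of 0.15 with 6 of 9 positive, and within the first series one of -2.53 with 0 positive and no test. The median of the white adipocyte genes was 0.85 in the second series and 1.60 in the first. The first-series WT BAT array, on another slide than Lr11 -/- scWAT replicate 1, had Ucp1 at 9.45, against 10.04 and 9.80 in the second. Whether the array series moved the Lr11 -/- scWAT levels was not tested.

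The genes that turn cAMP into heat production are the ones by which browning is read, and promoter sequence of 3 of them is shown because the TGACG core of the cAMP response element lies close to their start. RefSeq windows (assembly GRCm38.p6) of the 250 bases before the start were searched for TGACG on both strands (CGTCA on the other) and for the full element TGACGTCA, which contains both cores. Windows were at hand for 6 of the 9 thermogenic genes. TGACG was found in 4 of these 6, in Ucp1, Ppara, Ppargc1a and Dio2 (66.7%), against 5836 of all 32851 windows (17.8%). The full element was found in Dio2 (1 of 6) and in 508 of all windows (1.55%). A match describes the letters only. The windows are printed 5′ to 3′ on the strand of the gene, in lower case with the matches in capitals.

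Ucp1 (chr8:83290098-83290347, + strand): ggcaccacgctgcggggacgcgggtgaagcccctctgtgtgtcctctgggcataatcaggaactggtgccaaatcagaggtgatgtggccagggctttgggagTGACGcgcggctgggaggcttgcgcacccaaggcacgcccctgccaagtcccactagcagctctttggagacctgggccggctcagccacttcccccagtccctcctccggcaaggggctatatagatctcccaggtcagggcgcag

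Dio2 (chr12:90739039-90739288, - strand): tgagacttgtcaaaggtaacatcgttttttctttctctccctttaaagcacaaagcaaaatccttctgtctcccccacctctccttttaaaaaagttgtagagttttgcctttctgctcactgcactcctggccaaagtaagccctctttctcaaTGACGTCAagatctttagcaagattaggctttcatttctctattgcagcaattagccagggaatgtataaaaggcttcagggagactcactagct

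Ppargc1a (chr5:51567726-51567975, - strand): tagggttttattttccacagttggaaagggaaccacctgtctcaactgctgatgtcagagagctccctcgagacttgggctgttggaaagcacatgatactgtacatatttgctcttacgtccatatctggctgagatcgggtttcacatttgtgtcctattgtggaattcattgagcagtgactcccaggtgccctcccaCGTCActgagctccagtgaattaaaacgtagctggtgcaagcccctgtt

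In Ucp1 the last base of the match lay 143 bases before the start, and in Ppargc1a 45 bases before it. In Dio2 the TGACG and CGTCA matches within the full element ended 91 and 88 bases before it.

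On Lr11 -/- scWAT replicates 2 and 3 the thermogenic genes mostly stood within or above the range of WT BAT, and on replicate 1 most stood below it. Of the 9 genes 0 were called in limma and 0 had an unadjusted p under 0.05. The median difference was -0.68 and 7 of 9 were negative, against -0.05 over all probes. Without replicate 1 the median was 0.27 with 7 of 9 positive and 0 called, and with replicate 1 as the only Lr11 -/- scWAT array it was -2.32 with 0 positive and Dio2 called lower. No gene of the list had an interval within 2-fold, so the arrays neither show a gap nor bound it.

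Ucp1 stood at 4.39, 9.75 and 10.05 in Lr11 -/- scWAT and at 9.45, 10.04 and 9.80 in WT BAT. Replicates 2 and 3 thus lay inside or just above the range of true brown fat, while replicate 1 lay below every WT BAT array. The difference was -1.70 (SE 1.91, 95% CI -5.91 to 2.51; adjusted p = 0.88, limma) and without replicate 1 it was 0.14 (95% CI -3.95 to 4.23). The mean level in WT scWAT was -2.08, so replicate 1 too stood above the WT depot mean, although WT scWAT ranged up to 2.92. Cidea, a lipid droplet protein of brown fat, had the same shape, with 6.31, 10.04 and 10.06 in Lr11 -/- scWAT and 9.52, 9.86 and 9.93 in WT BAT (difference -0.97, 95% CI -5.18 to 3.24). Ppara, the nuclear receptor that drives fatty acid oxidation, stood at 1.81, 6.04 and 6.23 against 6.19, 6.63 and 6.10.

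Elovl3, an elongase of very long chain fatty acids induced when brown fat is recruited, was the gene of the list that went furthest past BAT. Its levels were -1.28, 5.09 and 5.02 in Lr11 -/- scWAT and -0.69, 0.93 and 2.26 in WT BAT. The difference of 2.11 (95% CI -1.66 to 5.88) was not called, adjusted p = 0.809, and without replicate 1 it was 4.22 (95% CI 1.26 to 7.19; adjusted p = 0.303). Bmp8b, a BMP ligand that raises the thermogenic response of brown fat, stood at -5.32, -0.29 and -2.29 in Lr11 -/- scWAT and at -4.29, -3.79 and -4.02 in WT BAT. It differed by 2.75 without replicate 1 (95% CI 1.42 to 4.08; adjusted p = 0.103) and by 1.40 with it. Replicates 2 and 3 were above every WT BAT array in both genes, and replicate 1 was below every one. For Bmp8b the replicate 1 value was a background reading, under the -4.67 of the dimmest signal called above background on that array. The Bmp8b difference with replicate 1 thus rests partly on background.

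Dio2, which makes active thyroid hormone inside the cell, stood at -1.12, 4.90 and 4.29 against 4.44, 4.00 and 1.67. Ppargc1a, the coactivator of mitochondrial biogenesis, stood at 0.98, 4.49 and 3.79 against 3.52, 3.55 and 2.84. In both, replicate 1 was the lowest of the 6 arrays. Adrb3, the β3-adrenergic receptor, was alike on all Lr11 -/- scWAT arrays, at 6.08, 6.53 and 6.65 against 6.33, 7.12 and 5.89 (difference -0.03, 95% CI -2.46 to 2.41). Prdm16, a transcriptional coregulator of brown and beige identity, was the only gene of the 9 whose groups did not overlap (background for lower genes 11.2%), at -1.33, -0.19 and -0.98 against 0.58, 0.96 and -0.02. Its difference of -1.34 (95% CI -2.70 to 0.02) was not called, adjusted p = 0.618.

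**Figure D2:**
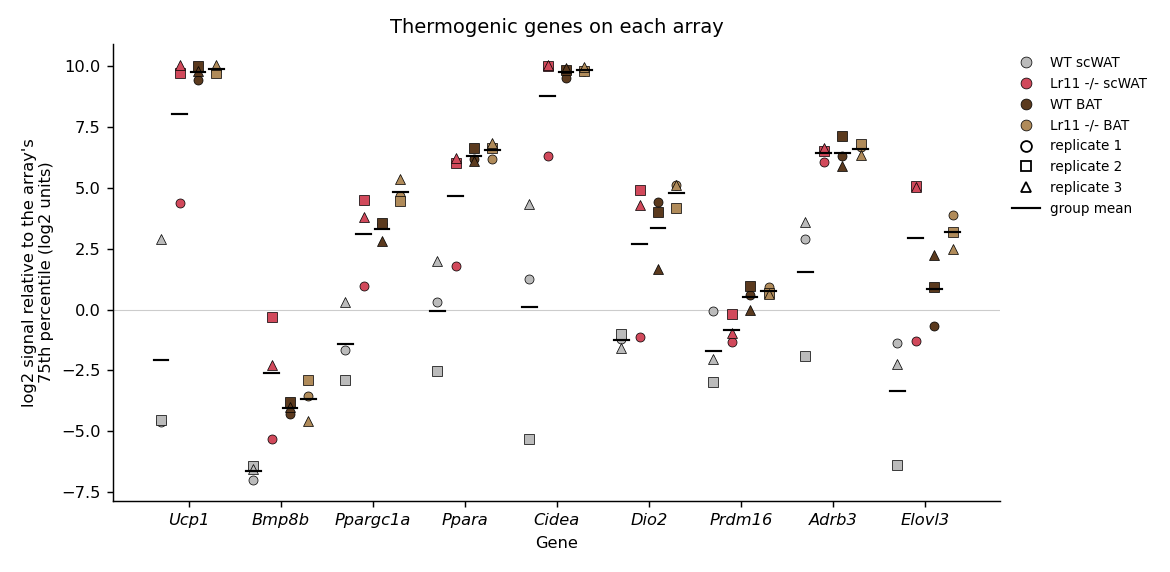
Levels of the 9 thermogenic genes (vertical axis, log2 intensity relative to the 75th percentile of the array) on the arrays of all 4 groups, with each array a point, coloured by group and shaped by replicate, and the group mean a line. In Lr11 -/- scWAT replicate 1 lies below replicates 2 and 3 in all 9 genes, and in Elovl3 and Bmp8b replicates 2 and 3 lie above every WT BAT array.

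3 Hox genes of the posterior body separated scWAT from BAT on all 3 Lr11 -/- scWAT arrays. Of 26 Hox genes 25 were tested, 3 were called higher (background 0.0298%) and 0 lower, with a median difference of 0.22. The 3 called genes passed the above-background filter only through Lr11 -/- scWAT, so they had to be brighter there. The background share does not allow for this. Hoxc9, a Hox gene of the posterior trunk that is used as a marker of white and beige fat, stood at 2.19, 2.36 and 2.13 in Lr11 -/- scWAT and at -6.87, -6.49 and -6.38 in WT BAT. It was above background on 0 of 3 WT BAT arrays, so the difference is given as at least 116-fold higher in Lr11 -/- scWAT (adjusted p = 1.47e-05, limma). WT scWAT had a mean of 1.88 and Lr11 -/- BAT one of -6.18, so the level followed the depot in both genotypes.

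Hoxc10 stood at 0.74, 0.48 and 0.06 against -4.51, -6.55 and -4.79 (difference 5.71, SE 0.63; adjusted p = 0.00658), and as it was above background on 1 of 3 WT BAT arrays the size of the difference rests partly on values at background. Hoxa10 stood at -0.97, -1.18 and -1.28 against -6.80, -6.65 and -6.49, with 0 of 3 WT BAT arrays above background, so its level in Lr11 -/- scWAT was at least 11.2-fold higher (adjusted p = 0.00245). These posterior genes were bright in scWAT of both genotypes and dim in BAT of both. Hoxa4 and Hoxc4, which lie nearer the anterior end of their clusters, had negative differences that were not called, while Hoxb3 and Hoxd4 had positive ones of 0.22 and 0.42. Hoxa4 stood at -2.89, -2.20 and -2.20 against -0.58, -0.62 and -0.73 (difference -1.79, adjusted p = 0.0846). Hoxc4 stood at 0.37, -0.22 and -0.24 against 1.64, 2.37 and 1.84 (difference -1.98, adjusted p = 0.0846), and it was called without replicate 1 (adjusted p = 0.0471). Over the 25 genes the groups did not overlap for 5 higher and 5 lower genes, where 8.26% and 11.2% of all probes did not.

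**Figure D3:**
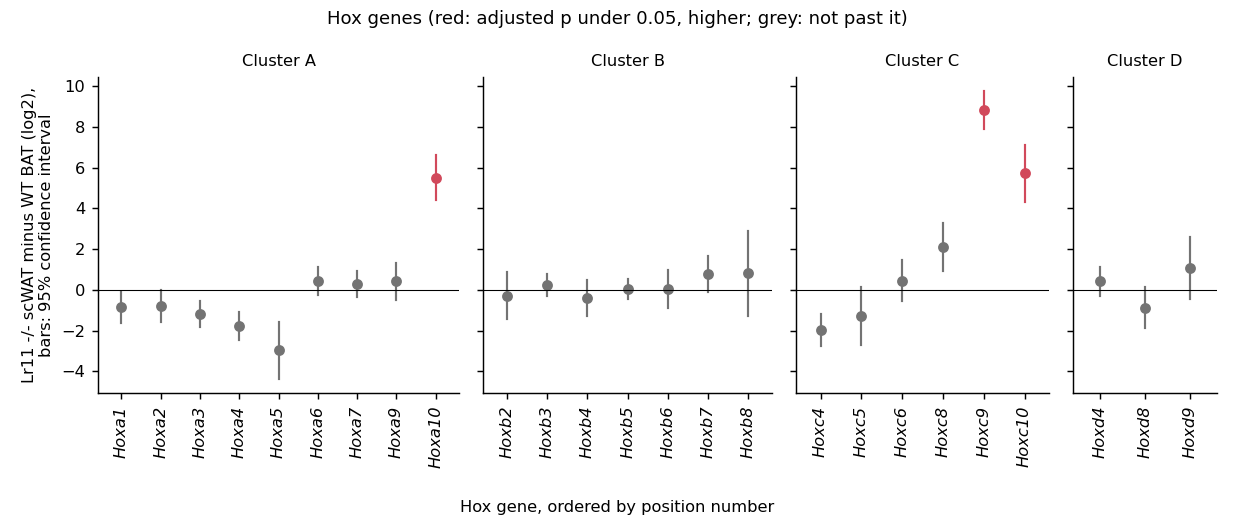
Difference between Lr11 -/- scWAT and WT BAT (log2, points, with 95% confidence intervals as bars) for each of the 25 tested Hox genes, by cluster and in the order of position number, with called genes in red. The called genes Hoxc9, Hoxc10 and Hoxa10 lie at 5.51 to 8.81, and the genes whose groups did not overlap in the lower direction include Hoxa4, Hoxa5 and Hoxc4.

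No marker of classical brown precursors was called in limma. Of 10 genes 6 were tested and 5 were negative, where 55% of all tested probes were, with 2 at an unadjusted p under 0.05 and a median of -0.73. Zic1, a zinc finger factor of somite-derived brown fat, stood at -3.79, -3.79 and -3.0 against -0.71, 1.49 and 1.34. The groups did not overlap, yet the difference of -4.23 (95% CI -7.83 to -0.64) was not called, adjusted p = 0.508. Meox2 and Ebf3 also did not overlap, with differences of -0.64 and -1.0. The groups thus did not overlap for 3 of the 6 genes in the lower direction, against 11.2% of all probes. Fbxo31 was the 1 positive gene, at 0.35.

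Of 12 beige markers 11 were tested and 1, Hoxc9, was called higher, with a median of 0.45, 6 positive and 5 negative. Tbx1, a T-box factor of beige cells, stood at 3.47, 1.30 and 0.86 against -1.0, -6.84 and -1.80 (difference 5.09, 95% CI 1.27 to 8.91; adjusted p = 0.439). For Tbx1 the WT BAT replicate 2 value was a background reading, under the -4.62 of the dimmest signal called above background on that array. Tbx1 thus passed the above-background filter only through Lr11 -/- scWAT and had to be brighter there than on that array. The size of its difference rests partly on background. Cited1 stood at 3.33, -0.29 and -1.18 against -1.27, -1.90 and -1.83. In both genes all Lr11 -/- scWAT arrays were above all WT BAT arrays, and replicate 1 was the highest. Over the 11 genes the groups did not overlap for 4 higher and 2 lower, against 8.26% and 11.2% of all probes. P2rx5, an ATP-gated channel listed for brown and beige cells, lay the other way, at 1.75, 4.71 and 4.25 against 5.12, 5.44 and 5.07 (difference -1.64, adjusted p = 0.681).

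Dlk1, an inhibitor of adipogenesis made by preadipocytes, was called lower. It stood at -1.55, -2.57 and -2.62 in Lr11 -/- scWAT and at 0.73, 1.5 and 1.17 in WT BAT, a difference of -3.38 (SE 0.38; adjusted p = 0.00658). The mean in WT scWAT was -3.03, below the -2.25 of Lr11 -/- scWAT. Without WT BAT replicate 2 Dlk1 was not called (adjusted p = 0.0687).

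The mitochondrial genes repeated the division between replicates on a narrower scale. All 28 genes of the respiratory chain were tested, 27 were negative and 0 were called or had an unadjusted p under 0.05, with a median of -0.51. Without replicate 1 their median was 0.08 with 20 of 28 positive, and all 28 differences lay between -0.27 and 0.53. With replicate 1 alone it was -1.70 with 0 positive. The citrate cycle had 13 of 13 genes negative and a median of -0.70, which became 0.02 without replicate 1 and -2.14 with it alone. Sucla2, a subunit of succinyl-CoA synthetase, stood at 5.62, 8.20 and 8.29 against 8.33, 8.70 and 8.40. Cs, citrate synthase, stood at 6.89, 9.35 and 9.29 against 8.62, 9.22 and 8.91. On replicates 2 and 3, Cs was thus above every WT BAT array and Sucla2 just below every one.

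The cytochrome c oxidase isoform list had a median of -0.52 over 8 genes, 0.05 without replicate 1. Cox7a1, an isoform of brown fat and muscle, stood at 7.02, 9.28 and 9.30 against 9.09, 9.26 and 9.35. Cox6a2, the muscle isoform, stood at 7.82, 3.06 and 2.04 against 5.66, -4.35 and 6.04, with its highest values on the 3 arrays rich in muscle RNA.

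Fatty acid oxidation had 14 of 18 genes negative and a median of -0.56 with 0 called and 1 at an unadjusted p under 0.05, and 17 of 18 positive with a median of 0.19 without replicate 1. Acaa2, the thiolase of the mitochondrial pathway, stood at 6.42, 9.64 and 9.88 against 9.53, 9.78 and 9.60. Ehhadh, a peroxisomal enzyme, stood at 2.45, 4.42 and 5.25 against 1.77, 2.33 and 4.00, with replicates 2 and 3 above every WT BAT array. Its difference of 1.34 was not called, adjusted p = 0.784.

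Lipid synthesis varied more between replicates than between the depots. De novo lipogenesis had a median of -0.16 over 14 genes with 0 called, and 0.71 with 12 of 14 positive without replicate 1. Elovl6, which elongates palmitate, stood at 1.66, 6.13 and 6.02 against 5.34, 5.65 and 4.96. Scd2, a desaturase, stood at 1.46, 6.20 and 5.59 against 3.86, 4.17 and 1.61 (difference 1.2, adjusted p = 0.865). In both genes replicates 2 and 3 lay above every WT BAT array and replicate 1 below every one. Triglyceride synthesis had a median of -0.62 over 11 genes with 10 negative, and lipolysis and lipid droplet genes had one of -0.05 over 12 with 6 negative. Cidec, the droplet protein of white adipocytes, was higher in Lr11 -/- scWAT on every array, at 7.95, 8.04 and 8.16 against 7.26, 7.76 and 7.84 (difference 0.43, adjusted p = 0.939). Plin5, the droplet protein that ties droplets to mitochondria, stood at 3.94, 6.67 and 6.85 against 6.40, 7.24 and 7.17. Fatty acid uptake had a median of 0.11 over 15 genes, and glucose uptake and oxidation one of -0.21 over 16.

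The adrenergic genes held 5 members whose groups did not overlap in the lower direction, of 15 tested (background 11.2%), with a median of -0.24 and 0 called, 3 at an unadjusted p under 0.05. Adrb1, the β1-adrenergic receptor, stood at -2.44, 0.54 and 0.34 in Lr11 -/- scWAT and at 2.16, 2.56 and 1.67 in WT BAT (difference -2.65, 95% CI -4.24 to -1.05; adjusted p = 0.282). Without replicate 1 the difference was -1.69. Unlike Adrb3, Adrb1 was below every WT BAT array on all 3 replicates. Rgs2, a regulator of G protein signalling, stood at 5.15, 4.69 and 3.52 against 5.67, 6.13 and 5.21.

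Creatine and calcium cycling, routes of heat production that do not use UCP1, had 7 of 9 tested genes negative and a median of -0.56 with 0 called, 1 at an unadjusted p under 0.05. Gatm, the first enzyme of creatine synthesis, stood at -1.28, -2.0 and -2.32 against -3.03, -3.25 and -2.53 (difference 1.07, adjusted p = 0.558).

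Of 15 factors secreted by brown fat 12 were tested, with a median of -0.14 and 0 called, 1 at an unadjusted p under 0.05. Fgf21, a hormone that brown fat and liver release under metabolic stress, stood at -4.04, 2.67 and 3.38 in Lr11 -/- scWAT and at -2.44, -1.49 and -2.12 in WT BAT. The difference of 2.69 was not called, adjusted p = 0.696, but without replicate 1 it was 5.04 (95% CI 3.86 to 6.22; adjusted p = 0.00316). Lr11 -/- BAT had a mean of -1.36 and WT scWAT one of -2.17, so replicates 2 and 3 stood above every other array of the series. Ptgds, prostaglandin D2 synthase, stood at -2.56, 0.62 and 1.11 against 3.55, 4.19 and 3.58 (difference -4.05, 95% CI -6.13 to -1.97; adjusted p = 0.181). Kng2, a kininogen, stood at -2.70, 3.23 and 3.26 against 3.83, 4.30 and 3.51. Both Ptgds and Kng2 were below WT BAT on all 3 replicates.

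Of 20 brown transcriptional regulators 19 were tested, with a median of -0.36, 15 negative and 0 called, 3 at an unadjusted p under 0.05. The groups did not overlap for 7 of them in the lower direction and 1 in the higher, against 11.2% and 8.26% of all probes. Esrrg, an orphan receptor of oxidative tissues, stood at -2.81, -0.27 and 0.10 against 0.14, 0.50 and 0.54. Irf4, a factor of brown fat and of lymphocytes, stood at 4.37, -2.60 and -2.26 against -1.52, -1.31 and -1.01, with replicate 1 far above and the other replicates below the range of BAT.

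In the BMP pathway, ligands of which promote brown adipocyte formation, 21 of 25 genes were tested, 0 were called, 4 had an unadjusted p under 0.05 and the median was 0.06. The groups did not overlap for 5 genes, all lower (11.2% of all probes), and for 0 higher (8.26%). Smad6, the inhibitory Smad that BMP signals induce, stood at -0.18, -1.08 and -1.24 against 0.34, 0.64 and 0.53 (difference -1.34, adjusted p = 0.357). Id2, a BMP target, stood at 0.07, 0.10 and -0.50 against 0.96, 0.96 and 1.53 (difference -1.26, adjusted p = 0.452).

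Genes of the white depot lay mostly above BAT with and without replicate 1. White adipocyte genes had 12 of 14 positive differences and a median of 0.60 with 0 called, 3 at an unadjusted p under 0.05. Without replicate 1 the median was 0.55, again with 12 positive. Retn, the hormone resistin, stood at 7.55, 5.85 and 6.22 against 4.70, 4.28 and 3.21 (difference 2.48, 95% CI 0.13 to 4.83; adjusted p = 0.573). Nrip1, a corepressor of oxidative genes in white fat, stood at 3.01, 2.27 and 2.60 against 0.98, 0.62 and 0.80 (difference 1.83, 95% CI 0.90 to 2.75; adjusted p = 0.181). For both, and for Slc7a10, Cfd and Adipoq, all Lr11 -/- scWAT arrays were above all WT BAT arrays, 5 of 14 genes where 8.26% of probes did so. Lep, leptin, overlapped, at -1.09, 1.12 and 1.55 against 2.22, 1.90 and -0.20.

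The extracellular matrix genes had 16 of 18 positive differences and a median of 0.76, 0.45 without replicate 1, with 0 called and 1 at an unadjusted p under 0.05. In 9 of the 18 all Lr11 -/- scWAT arrays were above all WT BAT arrays, as in 8.26% of all probes. Col1a1, a chain of fibrillar collagen, stood at 4.81, 4.10 and 4.19 against 3.36, 2.65 and 3.11 (difference 1.33, 95% CI -0.06 to 2.71). Its WT scWAT mean of 6.80 lay above every Lr11 -/- scWAT array, so the knockout depot stood between the WT depots. Col3a1 did so too, with 5.45, 4.92 and 5.18, against 4.18, 3.71 and 4.09 in WT BAT and a mean of 7.18 in WT scWAT.

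Among other cell types, all 9 tested macrophage markers were positive with a median of 0.97, 0.87 without replicate 1, and 0 called, 2 at an unadjusted p under 0.05. Mrc1, the mannose receptor of tissue macrophages, stood at 2.43, 1.66 and 1.51 against 0.58, 0.60 and 0.97 (difference 1.15, adjusted p = 0.552). Cd163, a macrophage scavenger receptor, was above background on 3 of 3 Lr11 -/- scWAT arrays and on 0 of 3 WT BAT arrays, at least 2.35-fold higher, but was not called (adjusted p = 0.337, limma). Cd163 thus passed the above-background filter only through Lr11 -/- scWAT, so it had to be brighter there. It is among the 9 positive macrophage markers. Endothelial markers had 7 of 8 negative with a median of -0.45, and 4 of them, Pecam1, Tek, Tie1 and Emcn, did not overlap in the lower direction, as did 11.2% of all probes. B lymphocyte markers had 5 of 5 negative with a median of -0.58, and T lymphocyte markers 6 of 7 positive with one of 0.93. Schwann cell and nerve markers had a median of 0.15, fibroblast markers one of 0.24 and smooth muscle markers one of 0.28, and without replicate 1 these stood at -0.09, -0.10 and -0.18. Epithelial markers had a median of 0.96, and -0.02 without replicate 1. None of these lists had a called gene.

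**Figure D4:**
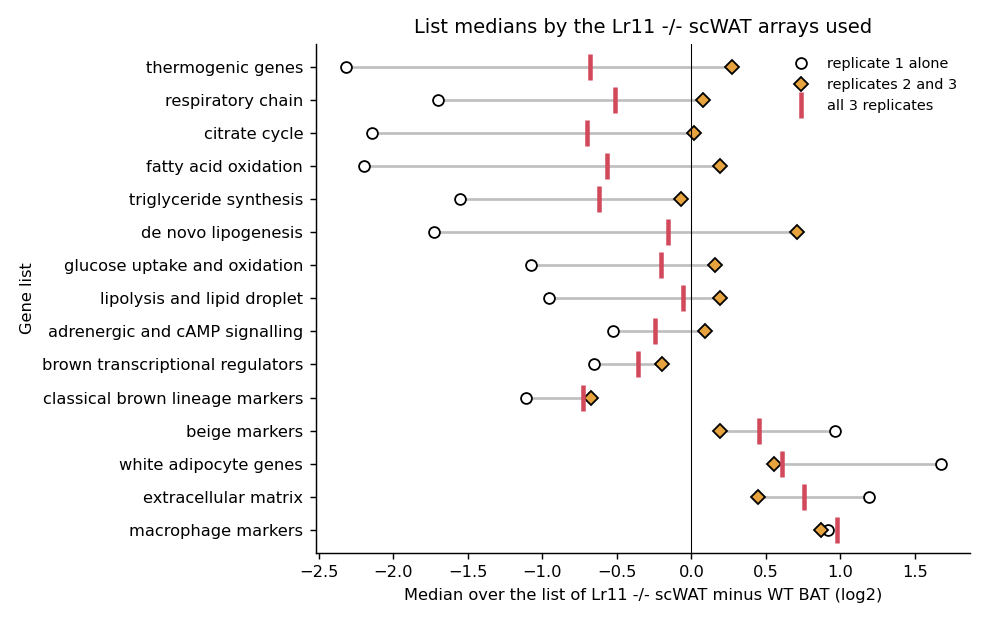
Median difference between Lr11 -/- scWAT and WT BAT (log2, horizontal axis) of gene lists, computed with all 3 Lr11 -/- scWAT arrays (red ticks), with replicates 2 and 3 (diamonds) and with replicate 1 alone (open circles). The thermogenic, respiratory chain, citrate cycle, fatty acid oxidation, triglyceride synthesis and de novo lipogenesis lists lie between -0.07 and 0.71 with replicates 2 and 3 and between -2.32 and -1.55 with replicate 1 alone, while white adipocyte, extracellular matrix and macrophage genes lie above 0 in all 3 cases.

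A wider view used probes chosen by the contrast between the other 6 arrays. Probes called at least 2-fold higher in Lr11 -/- BAT than in WT scWAT, on the other 6 arrays, were taken as brown-enriched, and the reverse as white-enriched. Because those groups also differ in genotype, genes that follow the genotype can enter either set. The choice was not independent of the arrays compared, since these also set the above-background filter and entered the shared estimate of the spread. A probe that passed that filter only through WT BAT, such as those of Galr1, Hpcal4 and Zfp827, had to be dimmer in Lr11 -/- scWAT. Zfp827 was above background on 0 of 3 Lr11 -/- BAT arrays and 0 of 3 WT scWAT arrays. Its place in the brown-enriched set thus rests on values at background. The brown-enriched set held 4326 probes without WT BAT replicate 2 and 4420 without WT BAT replicate 1. Of the 30208 tested probes 4752 were brown-enriched (15.7%) and 2516 white-enriched (8.33%).

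Of the brown-enriched probes 1 was called higher and 11 lower in Lr11 -/- scWAT than in WT BAT, and 88.9% had a negative difference, against 55% of all tested probes, with a median of -0.42 against -0.05 over all probes. In 1171 (24.6%) all Lr11 -/- scWAT arrays were below all WT BAT arrays, against 11.2% of all probes, and in 47 (0.989%) all were above. For 25.3% the interval lay within 2-fold. Without replicate 1 the set held 5076 probes with a median of -0.08, 13 called higher and 19 lower, and 39.8% within 2-fold. With replicate 1 as the only Lr11 -/- scWAT array it held 4702 probes with a median of -1.02, 10 called higher and 451 lower (9.59%), and 1.4% within 2-fold.

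Set against the range of the 3 WT BAT arrays, replicate 1 was below it for 90.1% of the brown-enriched probes, within it for 7.18% and above it for 2.67%. Replicate 2 was below for 44.9%, within for 37.1% and above for 18%. Replicate 3 was below for 30.5%, within for 42.4% and above for 27.1%. The WT scWAT arrays, which helped choose the set, were below for 96% to 98.2%. Replicate 1 thus stood near WT scWAT by this measure and replicates 2 and 3 near WT BAT, with median gaps to the WT BAT mean of -0.98, -0.18 and -0.02 for replicates 1, 2 and 3 and of -1.87 to -1.26 for WT scWAT. Of the white-enriched probes, replicates 1, 2 and 3 were above all WT BAT arrays for 71.3%, 48.2% and 41.4%, and the WT scWAT arrays for 88.1% to 95.8%. Each Lr11 -/- scWAT array held fewer white-enriched probes above BAT than any WT scWAT array. The WT scWAT arrays helped choose this set too and were high in it by selection. That order was thus largely fixed in advance. The set as a whole had a median difference of 0.43 with 6 called higher and 5 lower.

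**Figure D5:**
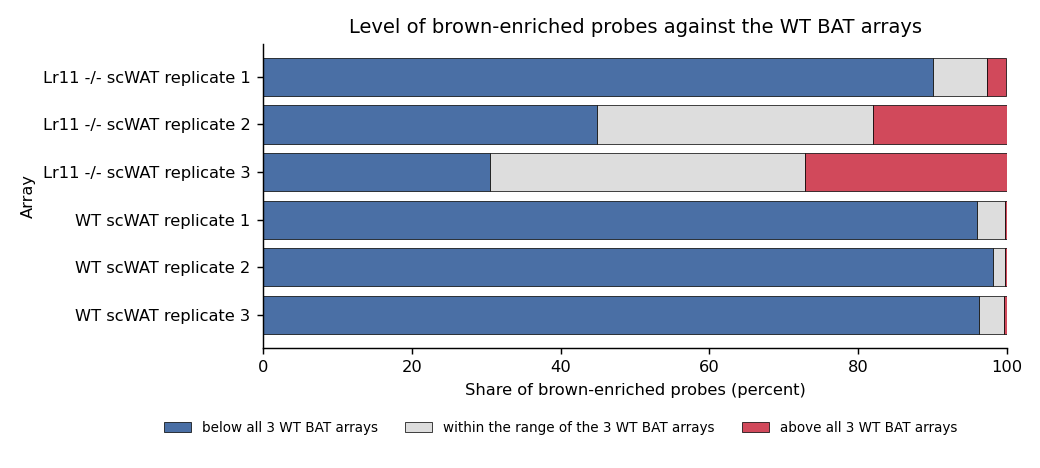
Share of the 4752 brown-enriched probes (percent, horizontal axis) that lay below, within and above the range of the 3 WT BAT arrays, with 1 bar for each scWAT array. Of these probes 90.1% are below the range on Lr11 -/- scWAT replicate 1, 44.9% on replicate 2 and 30.5% on replicate 3, against 96% to 98.2% on the WT scWAT arrays.

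Among brown-enriched genes, the 5 with the narrowest interval show how closely the arrays could bound the gap to BAT. Sqor, the mitochondrial enzyme that oxidises hydrogen sulphide, stood at 4.96, 4.74 and 5.05 in Lr11 -/- scWAT and at 4.73, 5.09 and 4.82 in WT BAT. Its difference was 0.03 (95% CI -0.38 to 0.44), and the WT scWAT mean was 3.69. Myg1 stood at 0.64, 0.87 and 1.05 against 1.14, 1.01 and 0.86 (difference -0.15, 95% CI -0.55 to 0.26). Cpsf1, Pkhd1 and Serac1 also had intervals within 2-fold, with differences of -0.36, -0.41 and -0.31. For these genes every Lr11 -/- scWAT array was below every WT BAT array, as in 24.6% of the brown-enriched probes.

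Some called genes followed the genotype. Sorl1, the targeted gene, stood at -3.57, -3.56 and -2.87 in Lr11 -/- scWAT and at 0.71, 1.21 and 0.11 in WT BAT (difference -4.01, SE 0.41; adjusted p = 0.00432). The means were 1.01 in WT scWAT and -2.96 in Lr11 -/- BAT, so all 3 Lr11 -/- scWAT arrays matched their genotype label, replicate 1 included. Nxpe4, on chromosome 9 as is Sorl1, stood at -4.38, -5.73 and -6.32 against -0.77, -0.38 and 0.03 (difference -5.10, adjusted p = 0.00432). It was above background on 1 of 3 Lr11 -/- scWAT arrays and 0 of 3 Lr11 -/- BAT arrays, so the size of the difference rests partly on values at background. The means were -5.74 in Lr11 -/- BAT and -0.83 in WT scWAT. Ppcdc, an enzyme of coenzyme A synthesis and also on chromosome 9, was above background on 0 of 3 Lr11 -/- scWAT arrays and at least 1.64-fold lower (adjusted p = 0.00673). Vmn1r216, a pheromone receptor gene, stood at -0.55, -0.67 and -0.46 against -3.72, -3.84 and -3.56 (difference 3.14, adjusted p = 0.00658), with a mean of -1.18 in Lr11 -/- BAT and of -4.13 in WT scWAT. Fcmr, the Fc receptor for IgM, was at least 3.94-fold lower (adjusted p = 0.0268), with a mean of -4.36 in Lr11 -/- BAT and of -2.99 in WT scWAT. These 5 genes had like levels in both knockout tissues and in both WT tissues. Nxpe4, Ppcdc and Fcmr passed the above-background filter only through WT BAT, so they had to be dimmer in Lr11 -/- scWAT.

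Il18, an inflammatory cytokine, stood at 0.38, -0.22 and -0.09 against -2.42, -2.54 and -2.45 (difference 2.5, SE 0.28; adjusted p = 0.00673). Its means of -0.25 in WT scWAT and 0.08 in Lr11 -/- BAT left WT BAT as the one group with a low level. Il18 lies on chromosome 9, as does Sorl1. Without WT BAT replicate 2 neither Il18 (adjusted p = 0.0739) nor Vmn1r216 (adjusted p = 0.0687) was called.

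Other called genes were not tied to the genotype in this way. Alb, serum albumin, stood at -1.67, -2.03 and -1.44 against -6.15, -6.56 and -6.45, at least 7.57-fold higher with 0 of 3 WT BAT arrays above background (adjusted p = 0.0311). Drd1, a dopamine receptor, was at least 3.46-fold higher (adjusted p = 0.0113), with means of -2.84 in Lr11 -/- scWAT, -4.23 in WT scWAT, -5.39 in Lr11 -/- BAT and -6.41 in WT BAT. Without WT BAT replicate 2 its adjusted p was 0.104. Alb and Drd1 passed the above-background filter only through Lr11 -/- scWAT, so they had to be brighter there. Slc22a18, a transporter, differed by 1.74 (adjusted p = 0.0165) and Ccdc68 by 1.71 (adjusted p = 0.0151). Alb and Slc22a18 had WT scWAT means of -2.78 and -0.21, near the knockout white depot.

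In the lower direction, Cacna1a, a voltage-gated calcium channel, stood at -1.84, -2.37 and -3.23 against 0.46, 0.84 and -0.04 (difference -2.90, adjusted p = 0.0151). Kcnj8, the pore of a potassium channel that senses ATP, stood at -1.32, -1.60 and -2.09 against 0.45, 0.98 and 0.72 (difference -2.39, adjusted p = 0.0311). Galr1, a galanin receptor, was at least 3.06-fold lower (adjusted p = 0.00245), Hpcal4, a neuronal calcium sensor, at least 3.65-fold lower (adjusted p = 0.0151), and the zinc finger gene Zfp827 at least 1.29-fold lower (adjusted p = 0.0042). Galr1, Hpcal4 and Zfp827 were above background on 0 of 3 Lr11 -/- scWAT arrays, with WT scWAT means of -6.75, -6.21 and -6.96. As these 3 were at background in scWAT of both genotypes, their levels there have no order. Cacna1a had a mean of -1.70 in WT scWAT against -2.48 in Lr11 -/- scWAT, and Kcnj8 one of -0.75 against -1.67, so both stood below WT scWAT as well. Without WT BAT replicate 2 the adjusted p of Cacna1a was 0.109.

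Without replicate 1, 113 named genes were called, 66 higher and 47 lower. Of all probes tested in this setting 0.28% were called higher. Of the genes called higher 17 were on the epididymal list, which was drawn up from these same values. The filter then needed only replicates 2 and 3 of Lr11 -/- scWAT. Genes such as Spag11b, Gpx5 and Lcn8 passed it only through these arrays and had to be higher there. The following were picked from the 113 called genes after their values were seen. Ucp2, a mitochondrial carrier related to UCP1, stood at 1.43, 3.35 and 3.18 in Lr11 -/- scWAT and at -0.11, -0.44 and 0.53 in WT BAT, a difference of 3.27 without replicate 1 (adjusted p = 0.0379). Trib3, a pseudokinase induced by cell stress, stood at 1.78, 4.02 and 4.93 against 0.88, 1.73 and 1.92, a difference of 2.96 (adjusted p = 0.00706). Mthfd2, of the mitochondrial folate cycle, stood at -2.30, 0.76 and 0.81 against -3.05, -3.13 and -2.93, a difference of 3.82 (adjusted p = 0.0233). With Fgf21 these were genes for which replicates 2 and 3 passed every WT BAT array. For Ucp2 and Mthfd2 replicate 1 and all WT scWAT arrays did so too. The WT scWAT levels were 0.60 to 2.79 for Ucp2 and -2.49 to 0.09 for Mthfd2. Orm3, an orosomucoid and one of the brown-enriched genes, stood at -2.03, 1.36 and 1.24 against -0.17, -0.25 and -0.26, a difference of 1.52 (adjusted p = 0.0211).

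Some genes tied Lr11 -/- scWAT replicates 2 and 3 to Lr11 -/- BAT and replicate 1 to the WT tissues. Btbd9, on chromosome 17, stood at -1.37, 1.36 and 1.27 in Lr11 -/- scWAT. Its levels were -1.16, -1.05 and -1.26 in WT BAT and 1.31, 1.47 and 1.48 in Lr11 -/- BAT. Trim12a had a different division, with 1.85 on Lr11 -/- scWAT replicate 1 and -5.48 and -6.39 on replicates 2 and 3, which were the only 2 of the 12 arrays on which it was not above background. For Med8, 1 probe stood at -6.88 and -5.22 on replicates 2 and 3 and between -1.54 and -0.78 on the other 10 arrays, while the other probe lay between 3.12 and 3.67 on all 12. Over all probes, 43 were above background on replicates 2 and 3 alone of the 12 arrays and 39 on all arrays but these. The same counts for replicates 2 and 3 of the other groups were 254 and 100 in WT scWAT, 28 and 5 in Lr11 -/- BAT and 10 and 16 in WT BAT, so these numbers are not particular to Lr11 -/- scWAT.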

How the data were processed

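Spot intensities were deposited by the authors (Agilent gProcessedSignal, background-subtracted and detrended within its array by Agilent Feature Extraction 10.10.1.1, per the submitters' processing notes, neither normalized between arrays nor in log2). The deposited table of the series holds the same numbers. Each array had 62976 features, 59305 of them outside the controls, for 55681 probes. Over the 6 arrays compared 33448 to 36353 spots were well above background and 0 were saturated, and the number of arrays limits the precision. Outlier spots (128 to 181 per array) were left out, spots of a probe were averaged after log2, and the 75th percentile of the array (374 to 632) was subtracted. Symbols were found by looking up RefSeq accessions in a table of GRCm38.p6 genes (27235 of 28685 probes), and no coordinates were used for the array, which was designed on another assembly.

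All 12 arrays entered 1 limma fit (version 3.58.1, R 4.3.3) with 4 group means, and Lr11 -/- scWAT minus WT BAT was tested over 30208 probes, of which 23 lacked 25 values in all. An exact permutation test of 3 arrays against 3 cannot go below p = 0.1 and was not used. A gene was read from its brightest tested probe. Where a group had 0 of 3 arrays above background, the fold is a lower bound, taken against the dimmest signal still called above background on each array of that group (or the probe's own signal where higher). Genes named by rule are Sorl1, the thermogenic, lineage, Hox and white adipocyte lists, the 2 highest and 2 lowest members of other lists, the 10 called genes highest and the 10 lowest by difference whose groups do not overlap, and of the brown-enriched genes the 5 most raised, the 5 most lowered and the 5 with the narrowest interval. Other list members were picked after their values were seen. The 30 lists with 395 genes were chosen with earlier results of these data known, as were the members, and the epididymal and Y-linked lists after the values were seen. The steps were tested on simulated data. Alternatives covered background correction, scaling, filter, blocks, weights, thresholds and arrays left out. The setting with replicate 1 as the only Lr11 -/- scWAT array and the one without the 3 muscle-rich arrays were chosen after seeing the data. Figures were drawn with matplotlib 3.10.9.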

Additional observations from a re-analysis of the deposited data

How the results depend on the processing

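Against 28 calls (9 higher, 19 lower) over all arrays, leaving out 1 array at a time gave 11 to 161 calls, 3 to 87 higher and 8 to 74 lower. The arrays that moved a count by over 1.5 times were Lr11 -/- scWAT replicate 1 (161 calls, 87 higher and 74 lower without it), replicate 2 (18, 10 lower) and replicate 3 (11 lower), WT BAT replicate 1 (18, 5 higher) and replicate 2 (11, 3 higher and 8 lower), and WT scWAT replicates 1 (87, 34 higher and 53 lower) and 2 (86, 33 higher and 53 lower). With replicate 1 as the only Lr11 -/- scWAT array 988 were called (482 higher, 506 lower), the probes whose 95% interval lies within 2-fold numbered 4405 and the brown-enriched median was -1.02, where the lone array is assumed to vary like the other groups. Without the 3 muscle-rich arrays 71 were called (17 higher, 54 lower) and 5459 lay within 2-fold, with the lone WT BAT array treated likewise.

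A filter on all 6 arrays left 8 calls (4 higher, 4 lower), the slide as a block 15 higher, the 6 arrays alone 20 higher, and the second array series alone 108 (55 higher, 53 lower). The first series alone, with no test, had a brown-enriched median of -0.98. Array weights gave 5539 calls (2665 higher, 2874 lower) and 22544 probes whose 95% interval lies within 2-fold. At an adjusted p under 0.01 there were 14 calls (5 higher, 9 lower) and at 0.1 there were 71 (23 higher, 48 lower). The cause was not tested. Other scalings, normexp and the other settings gave 19 to 38 calls. No direction of a called value reversed. Alb lost its call in 17 of 32 settings, Kcnj8 in 15 of 33, Fcmr in 13 of 32, Slc22a18 in 12 and Ccdc68 in 11 of 33, Hpcal4 in 9 and Drd1 in 7 of 32 and Cacna1a in 7 of 33. Without WT BAT replicate 2 the adjusted p passed 0.05 for Dlk1 and Vmn1r216 (0.0687 each), Il18 (0.0739), Drd1 (0.104) and Cacna1a (0.109). No paired analysis was possible because the labels carry no replicate numbers.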
